A study of Mus musculus with 6 samples.

Results

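Expression of 35 genes that encode nuclear receptors and their coregulators was compared between control livers and livers of liver-specific Klf15 knockout mice. The genes were taken by name from a list of 29 receptors and 6 coregulators, and all 35 were found among the 48432 genes of the deposited table. The control group, Ctl, was made up of 10-week-old Albumin-Cre mice, in which an albumin promoter drives Cre recombinase in hepatocytes. The other group, Li-KO, was made up of liver-specific Klf15 knockout mice of the same age. Each group had 3 libraries of total liver RNA, numbered 0, 1 and 2. The labels do not give the deleted exon, the Cre driver of the Li-KO group by name, the sex, the feeding state or the time of collection, and non-hepatocyte liver cells should keep Klf15 if deletion is confined to hepatocytes.

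Nuclear receptors are transcription factors, many of which are switched by a lipid-soluble ligand such as a steroid, thyroid hormone, a retinoid, an oxysterol or a fatty acid. Many bind DNA as heterodimers with a retinoid X receptor, and ligand binding exchanges corepressor complexes such as NCOR1 with histone deacetylases for coactivators of the NCOA and PGC-1 families. In liver they set the programmes of bile acid, lipid, glucose and mitochondrial metabolism. Klf15 encodes a Kruppel-like zinc finger transcription factor of the same metabolic setting, and Kruppel-like factors bind GC-rich and CACCC sequences.

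Libraries held 30716763 to 43375781 fragments. Klf15 itself stood at 345, 174 and 196 CPM (counts scaled to library depth, after TMM) in Ctl replicates 0, 1 and 2, against 54.3, 41.6 and 51.8 CPM in the Li-KO libraries. The groups did not overlap, and the log2 fold change (Li-KO minus Ctl, as throughout) was -2.28 ± 0.26 (SE, n = 3 libraries per group, adjusted p = 0.00275, edgeR quasi-likelihood test with Benjamini-Hochberg adjustment). Whether the libraries of a group came from separate mice is not stated, and the p-values therefore refer to variation among libraries, which may be technical. Calls were made at an adjusted p under 0.05 over the 16533 genes tested. Hepatocyte markers, 9 tested of 11 listed, summed to 15234 to 28496 CPM in Ctl and to 21365 to 26977 CPM in Li-KO. Of the 9, 7 had log2 fold changes above 0, with a median of 0.33. Asgr2 was called higher, and Tdo2 and Fah were called lower. Because whole liver was sequenced, fewer cells of a type and less RNA per cell cannot be told apart.

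Of the 35 genes, 32 were expressed, here a mean above 1 FPKM (fragments per gene length and per sequencing depth) in either group. Hnf4a, which encodes the receptor that maintains hepatocyte identity, had the highest level, 215 ± 14.7 FPKM in Ctl (SD, n = 3) and 203 ± 37.5 FPKM in Li-KO. Rxra, the main heterodimer partner, followed at 106 ± 6.58 and 94.0 ± 6.61 FPKM. Next in Ctl came the oxysterol receptor Nr1h3 (LXRα) at 44.5 ± 2.33 FPKM, the orphan receptor Nr2f6 at 36.9 ± 3.18 FPKM and the glucocorticoid receptor Nr3c1 at 30.2 ± 1.92 FPKM. The highest coregulator was the corepressor Ncor1 at 25.5 ± 1.41 FPKM in Ctl. At the low end, Nr2f1 (COUP-TFI) had 0.366 ± 0.0898 FPKM and Hnf4g had 0.130 ± 0.0427 FPKM in Ctl. Vdr, the vitamin D receptor, was the 1 silent gene. Only 3 fragments in Ctl replicate 1 and 2 in Li-KO replicate 2 were assigned to it, with 0 in the other 4 libraries, too few to be tested.

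**Figure D1:**
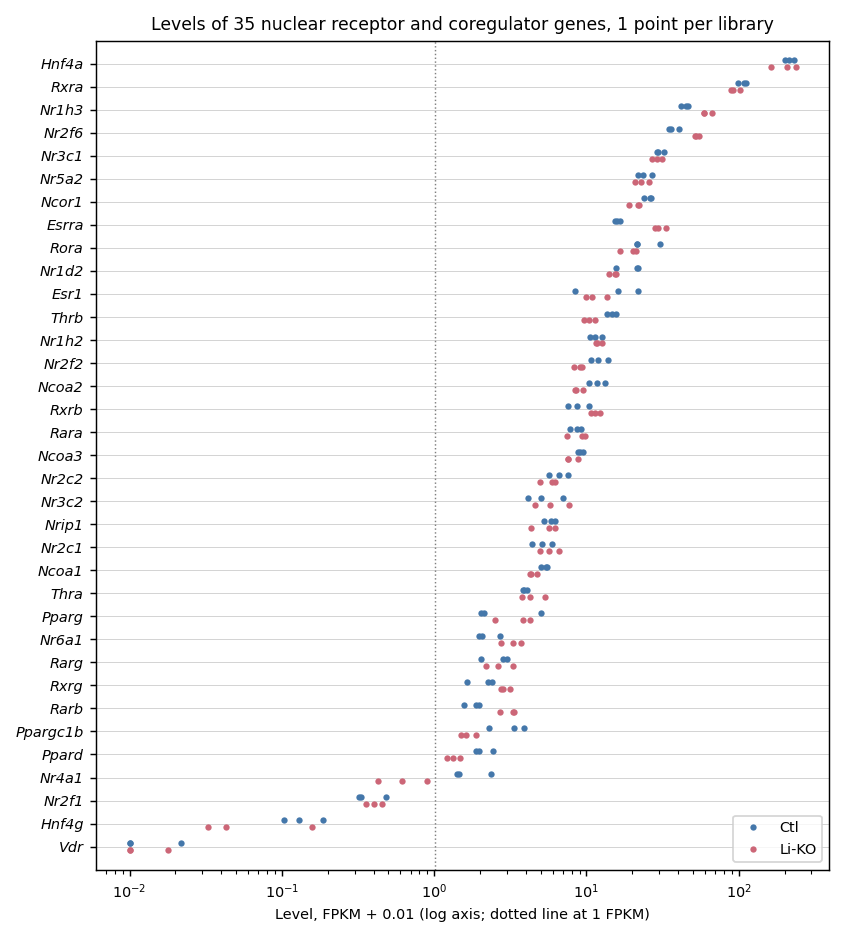
Level of each of the 35 genes in each library, as FPKM + 0.01 on a log axis, with blue points for the 3 Ctl libraries and red points for the 3 Li-KO libraries. The dotted line marks 1 FPKM. Hnf4a and Rxra lie near or above 100 FPKM, most genes lie between 1 and 100 FPKM, and Vdr is at or near 0.

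Levels within receptor families were dominated by 1 member in most cases. As shares of summed FPKM, Rxra took 90.6% ± 1.15 of the 3 RXR genes in Ctl and 86.7% ± 0.793 in Li-KO. Hnf4a took 99.9% ± 0.0242 of the 2 HNF4 genes in Ctl. Thrb took 78.8% ± 1.59 of the thyroid hormone receptors in Ctl and 70.3% ± 4.67 in Li-KO. The most evenly split family was NCOA, where Ncoa1, Ncoa2 and Ncoa3 held 20.4% ± 2.10, 44.9% ± 2.77 and 34.7% ± 0.685 in Ctl. Within the control group Pparg and Esr1 varied most among the expressed genes, with coefficients of variation of 56.0% and 43.2% for FPKM.

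In Li-KO, 9 of the 34 tested genes were called changed (26.5%), against 12.0% of all genes tested. Esrra, Nr2f6, Rarb and Nr1h3 rose, and Nr2f2, Nr4a1, Thrb, Ncoa2 and Ppargc1b fell. The 4 that rose were all receptors, and the background share of rising genes was 6.11%. The 5 that fell were 3 receptors and 2 coactivators, with a background share of 5.90%. The CPM values of the groups did not overlap for 19 of the 34 genes (55.9%), against 35.2% of all genes tested. The median log2 fold change of the 34 was -0.22, beside -0.01 over all genes tested, with 13 values above 0 and 21 below. Only 3 of the changes reached 1 log2 unit in size, those of Esrra, Ppargc1b and Nr4a1. Other markers differed between the same libraries. Red cell markers summed to 671 to 727 CPM in Ctl and to 271 to 529 CPM in Li-KO, which do not overlap, with 0 of 5 called and a median log2 fold change of -0.72. Of 3 tested nuclear-retained RNAs, listed for RNA quality, 1 rose (Meg3, 3.90 ± 0.48, adjusted p = 0.00367, edgeR), with a median of 0.88. Meg3 is also an imprinted gene, so its value need not reflect RNA quality, and which applies was not tested. Of 6 cholangiocyte markers 5 had log2 fold changes above 0, with a list median of 0.70, but 0 were called higher. Only Sox9 was called, and it fell (-2.39 ± 0.24, adjusted p = 0.00153, edgeR). The cholangiocyte sums were 33.5 to 64.3 CPM in Ctl and 48.0 to 152 CPM in Li-KO, with overlap. Of 10 Kupffer cell markers 0 were called. The part of these differences in the receptor values was not tested.

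**Figure D2:**
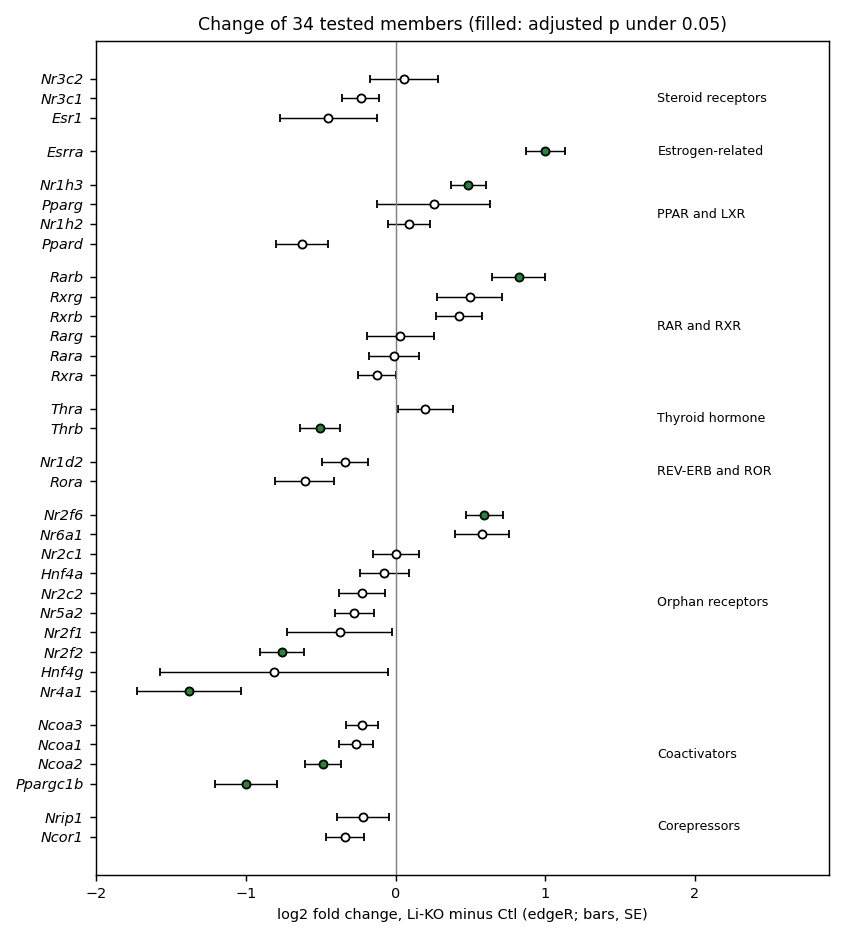
Log2 fold change, Li-KO minus Ctl, of the 34 tested genes, grouped by role, with bars for the SE. Filled points mark the 9 genes with an adjusted p under 0.05 (edgeR): Esrra, Nr1h3, Rarb and Nr2f6 lie right of 0, and Thrb, Nr2f2, Nr4a1, Ncoa2 and Ppargc1b lie left of it.

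The change with the smallest p among the 34 was that of Esrra, which encodes ERRα, an orphan receptor that drives mitochondrial and oxidative genes together with PGC-1 coactivators. Esrra (ENSMUSG00000024955.13, chromosome 19, 6910977 to 6921813, minus strand, mm10) stood at 40.7, 39.8 and 36.6 CPM in Ctl replicates 0, 1 and 2. It stood at 89.5, 74.7 and 70.0 CPM in the Li-KO libraries, in the same order. Each Li-KO library was far above each Ctl library, and the gap between groups was wider than the spread within either. Esrra rose 2.0-fold (log2 fold change 1.0 ± 0.13, SE, n = 3 per group, adjusted p = 0.00446, edgeR). Its level went from 15.9 ± 0.689 to 30.2 ± 2.62 FPKM. It was the 1 gene of the 9 still called whichever single library was left out, with adjusted p-values (edgeR) of 0.00542 to 0.0278.

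The promoter of Esrra is shown because its change was called without any 1 library, with the letters Kruppel-like and Sp factors can bind in capitals. It runs 5′ to 3′ from 250 bases before to 50 bases after the RefSeq start (GRCm38.p6, chr19:6921759-6922058, minus strand).
Esrra: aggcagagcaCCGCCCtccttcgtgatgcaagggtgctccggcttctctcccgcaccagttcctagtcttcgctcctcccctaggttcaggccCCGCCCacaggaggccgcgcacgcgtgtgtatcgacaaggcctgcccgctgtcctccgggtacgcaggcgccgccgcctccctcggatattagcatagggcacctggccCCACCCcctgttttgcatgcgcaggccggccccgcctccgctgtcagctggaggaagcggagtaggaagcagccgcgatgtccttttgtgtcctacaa
Capitals mark the GC box CCGCCC and the CACCC box CCACCC, searched on both strands. This window held 2 GC boxes and 1 CACCC box. Over all 32851 RefSeq promoters of this length, 35.7% held a GC box and 31.5% a CACCC box, so either match is common and only describes the sequence.

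Among 15 listed ERR target genes, 14 were tested, 5 rose and 0 fell, with a median log2 fold change of 0.48. The share called was 35.7%, beside 12.0% of all genes tested. This list and the other target lists were chosen with earlier results of these data known, so their shares only describe the listed genes. Among those called were Atp5b (ATP synthase β subunit, 0.87 ± 0.16, adjusted p = 0.0150, edgeR), Pdk4, Cox6a1 and Mdh2. Pdk4, which restrains pyruvate oxidation, went from 9.28 ± 0.226 to 15.1 ± 1.19 CPM. Mdh2 (mitochondrial malate dehydrogenase) is named beyond the rule of up to 4 genes per list, after its values were seen. Most of the list did not pass the test, for example Cs (citrate synthase, 0.06 ± 0.14, adjusted p = 0.824) and Sdhb (-0.37 ± 0.14, adjusted p = 0.109). The other ERR receptors were low, with Esrrb at 0.307 FPKM and Esrrg at 0.452 FPKM on average in Ctl, and neither was called.

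Ppargc1b (ENSMUSG00000033871.14) encodes PGC-1β, a coactivator of ERRα and of other receptors. Its change was opposite in sign to that of Esrra. Ppargc1b stood at 18.4, 17.4 and 12.1 CPM in Ctl replicates 0, 1 and 2, against 9.18, 7.96 and 6.83 CPM in Li-KO replicates 0, 1 and 2. All 3 Li-KO libraries were below the lowest Ctl library, although Ctl replicate 2 lay nearer to Li-KO than the other two. Ppargc1b fell 2.0-fold (log2 fold change -1.0 ± 0.21, adjusted p = 0.0210, edgeR). The call was lost without Ctl replicate 0, Ctl replicate 1 or Li-KO replicate 1, with adjusted p-values of 0.0540, 0.0984 and 0.0763. Ppargc1a (PGC-1α), the fasting-induced PGC-1 coactivator and outside the 35 genes, had 38.4, 20.0 and 16.9 CPM in Ctl against 91.7, 35.9 and 53.7 CPM in Li-KO. Its log2 fold change was above 0, at 1.27 ± 0.39, but the groups overlapped and it was not called (adjusted p = 0.0678).

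Ncoa2 (ENSMUSG00000005886.14, chromosome 1, 13139105 to 13374083, minus strand) encodes the p160 coactivator also called TIF2 or GRIP1, which binds liganded receptors and brings in histone acetyltransferases. Its level was 135, 123 and 109 CPM in the Ctl libraries and 91.5, 86.3 and 85.1 CPM in the Li-KO libraries, without overlap. Ncoa2 fell by 0.48 on the log2 scale (SE 0.12, adjusted p = 0.0357, edgeR), and it lost the call each time 1 of the 6 libraries was left out (adjusted p 0.0547 to 0.139). Ncoa1 (SRC-1), the founding p160 coactivator, had 53.2, 59.0 and 60.7 CPM in Ctl against 46.0, 46.4 and 51.5 CPM in Li-KO. Its groups did not overlap either, and it was not called (-0.27 ± 0.11, adjusted p = 0.164). Ncoa3 (SRC-3) had a log2 fold change of -0.23 ± 0.11 (adjusted p = 0.200), also without overlap. Summed over the 3 NCOA genes, the level was 26.2 ± 1.51 FPKM in Ctl and 21.3 ± 0.747 FPKM in Li-KO.

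The corepressors on the list were not called. Ncor1, the scaffold that brings histone deacetylase 3 to unliganded receptors, stood at 268, 309 and 323 CPM in Ctl against 215, 244 and 254 CPM in Li-KO. These ranges did not overlap, but the log2 fold change of -0.34 ± 0.13 did not pass the test (adjusted p = 0.125, edgeR). Nrip1 (RIP140), a repressor of oxidative genes, had -0.22 ± 0.17 (adjusted p = 0.445) with overlapping groups. All 6 coregulators thus had log2 fold changes below 0, with a median of -0.30, beside -0.01 over all genes tested. Of the 6, 2 were called lower, beside 5.90% of all genes tested.

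A further 30 coregulators outside the 35 genes were looked at in the same fit, of which 1 rose and 3 fell, with a median log2 fold change of -0.07. The share called, 13.3%, was near the 12.0% of all genes tested. Hdac3, the deacetylase of the NCOR complexes, rose from 31.5, 36.8 and 36.6 CPM to 53.4, 52.5 and 44.5 CPM (0.52 ± 0.13, adjusted p = 0.0369, edgeR). Cited2, a CBP and p300 binding protein, fell by 0.89 on the log2 scale (adjusted p = 0.0386). Ncoa6, a coactivator, fell by 0.43 (adjusted p = 0.0476).

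Nr1h3 encodes LXRα, the oxysterol receptor that induces cholesterol export and lipogenic genes. Nr1h3 (ENSMUSG00000002108.10, chromosome 2, 91184061 to 91202834, minus strand) stood at 101, 102 and 96.6 CPM in Ctl replicates 0, 1 and 2. The Li-KO libraries had 157, 137 and 127 CPM, all above the Ctl libraries, which lay close together. Nr1h3 rose 1.40-fold (log2 fold change 0.49 ± 0.12, adjusted p = 0.0338, edgeR), and of the 6 fits without a library it was called in 1, without Li-KO replicate 2 (adjusted p = 0.0247), with values of 0.0685 to 0.114 in the others. Nr1h2 (LXRβ), the ubiquitous LXR, had 26.2 ± 1.77 CPM in Ctl against 27.9 ± 3.60 CPM in Li-KO (adjusted p = 0.707). The share of Nr1h3 in the summed LXR level was 79.5% ± 0.731 in Ctl and 83.7% ± 0.210 in Li-KO.

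Of the 2 RefSeq promoters of Nr1h3, whose windows overlap, the one at chr2:91195067-91195366 (GRCm38.p6, minus strand) is shown, with its single CACCC box in capitals.
Nr1h3: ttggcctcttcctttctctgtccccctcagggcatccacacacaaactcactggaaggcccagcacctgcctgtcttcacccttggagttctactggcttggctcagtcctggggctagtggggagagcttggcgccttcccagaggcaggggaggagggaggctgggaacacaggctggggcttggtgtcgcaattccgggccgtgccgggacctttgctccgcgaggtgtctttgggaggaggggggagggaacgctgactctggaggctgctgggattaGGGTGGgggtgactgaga
Neither Nr1h3 window held a GC box or the hexamer AGGTCA, the core that many receptors bind, which 16.3% of all promoters held.

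Of 9 tested LXR target genes, Abcg5 and Nr1h3 itself rose and 0 fell, with a median log2 fold change of 0.47. The share called, 22.2% beside 12.0% of all genes, counts Nr1h3 a second time. Abcg5 was thus the only called target apart from the receptor gene, and the share gives no separate evidence on LXR targets. Abcg5, a sterol exporter of the canalicular membrane, went from 192, 85.7 and 127 CPM in Ctl to 453, 312 and 279 CPM in Li-KO (1.37 ± 0.30, adjusted p = 0.0257, edgeR). Its partner Abcg8 had 1.03 ± 0.35 and was not called (adjusted p = 0.0891). Abca1 and Srebf1, other LXR targets, had 0.05 ± 0.16 (adjusted p = 0.860) and 0.25 ± 0.36 (adjusted p = 0.683).

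The PPAR receptors on the list were not called. Ppard (PPARδ), a fatty acid receptor, had 9.56, 8.10 and 8.33 CPM in Ctl against 5.93, 5.23 and 5.69 CPM in Li-KO. The groups did not overlap and the log2 fold change was -0.62 ± 0.17, with an adjusted p of 0.0509 (edgeR), just outside the threshold. Pparg, low in normal liver and known from fat tissue, had 5.34, 13.6 and 5.81 CPM in Ctl against 10.9, 11.9 and 6.81 CPM in Li-KO, which overlapped (adjusted p = 0.696). Ppara, the main PPAR of hepatocytes and outside the 35 genes, held 93.1% ± 2.01 of the summed PPAR level in Ctl and had a log2 fold change of 0.04 ± 0.18. Among 10 tested PPAR targets 3 rose and 1 fell (40% called, beside 12.0% of all genes), with a median of 0.18. The fatty acid transporter Cd36 (2.33 ± 0.27, adjusted p = 0.00284, edgeR), the lipid droplet coat gene Plin2 (1.26 ± 0.18, adjusted p = 0.00643) and Pdk4 rose. Pdk4 is also counted among the ERR targets. Summed over the 12 listed PPAR targets, the level was lower in Li-KO, at 3741 to 4947 CPM against 5565 to 7329 CPM in Ctl, without overlap.

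Among the retinoid receptors, Rarb (RARβ, ENSMUSG00000017491.8, chromosome 14, 16430839 to 16819156, minus strand) was the 1 called gene of 6, beside 12.0% of all genes tested. It stood at 6.42, 8.10 and 7.77 CPM in Ctl replicates 0, 1 and 2, against 14.1, 11.2 and 14.1 CPM in Li-KO. Every Li-KO library was above the Ctl range, and Rarb rose 1.77-fold (log2 fold change 0.82 ± 0.18, adjusted p = 0.0239, edgeR). The call was lost when any 1 of the 3 Ctl libraries was left out, with adjusted p-values of 0.0614 to 0.0707. The share of Rarb in the summed RAR level was 13.8% ± 0.420 in Ctl and 21.3% ± 0.675 in Li-KO. Rara and Rarg, the other retinoic acid receptors, had log2 fold changes of -0.01 ± 0.17 and 0.03 ± 0.22 (adjusted p = 0.977 and 0.941). Exons of Rarb share 1793 bases (34.1% of its exon bases) with Top2b on the opposite strand. The library kit is stranded but the strand setting of the counting is not given, so reads of the pair may not be separated. Top2b had 130 ± 11.4 CPM in Ctl against 108 ± 26.4 CPM in Li-KO (-0.27 ± 0.17, adjusted p = 0.340).

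Rarb is a textbook target of retinoic acid receptors through a direct repeat in its promoter, and that stretch is shown in capitals (GRCm38.p6, chr14:16575427-16575726, minus strand).
Rarb: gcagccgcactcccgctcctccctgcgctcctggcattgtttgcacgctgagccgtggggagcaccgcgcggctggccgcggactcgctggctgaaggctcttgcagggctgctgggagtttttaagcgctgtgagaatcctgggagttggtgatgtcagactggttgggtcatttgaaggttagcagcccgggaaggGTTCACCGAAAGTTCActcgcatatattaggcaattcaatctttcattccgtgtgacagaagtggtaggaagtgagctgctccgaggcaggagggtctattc
The search letters were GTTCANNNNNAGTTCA on both strands, and the match began 52 bases before the RefSeq start. The same letters were found in 11 of the 32851 promoters (0.0335%), and in 1 of the 47 RefSeq promoters that 29 of the 35 genes had. These letters are those of the Rarb repeat itself with an open spacer, so its match was fixed in advance. Repeats with other letters were not searched, and other promoters may hold them.

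Of 7 tested retinoic acid targets 2 fell and only Rarb itself rose, with a list median log2 fold change of 0.18. The share called, 42.9% beside 12.0% of all genes, counts Rarb a second time. Both other called targets were lower in Li-KO. Dhrs3, a retinal reductase, was among those that fell (-0.54 ± 0.13, adjusted p = 0.0361, edgeR). Cyp26a1, the retinoic acid hydroxylase, went from 16.6 ± 8.40 to 83.8 ± 95.4 CPM and was not called (adjusted p = 0.0859), with an SD as large as its mean in Li-KO.

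The retinoid X receptors were not called. Rxra had 659, 690 and 601 CPM in Ctl against 573, 593 and 623 CPM in Li-KO, with overlap (log2 fold change -0.12 ± 0.13, adjusted p = 0.554, edgeR). Rxrb had 28.7, 21.3 and 22.9 CPM in Ctl against 31.3, 36.7 and 30.1 CPM in Li-KO, without overlap (0.43 ± 0.15, adjusted p = 0.105). Rxrg had 3.43, 4.82 and 5.04 CPM in Ctl against 6.19, 5.97 and 6.56 CPM in Li-KO, also without overlap (0.50 ± 0.22, adjusted p = 0.167). The 2 minor RXR genes thus sat higher in each Li-KO library, but by amounts that did not pass the test.

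**Figure D3:**
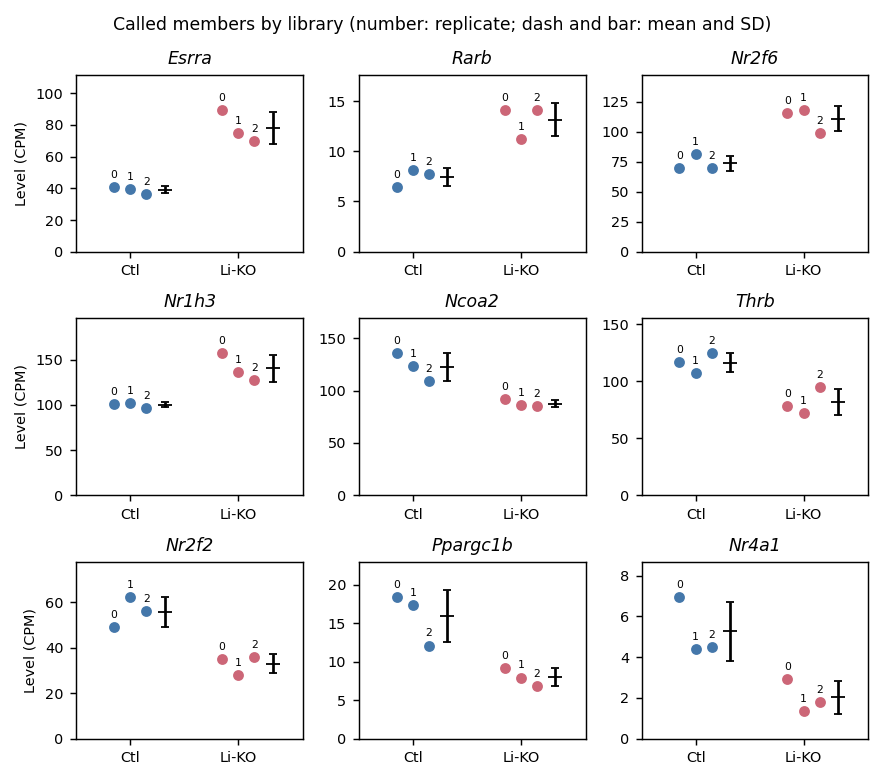
Level in CPM of the 9 called genes in each library, with the replicate number over each point and the group mean and SD beside the points. The axis of each panel starts at 0. In every panel the 3 Li-KO libraries lie wholly above (Esrra, Rarb, Nr2f6, Nr1h3) or wholly below (Ncoa2, Thrb, Nr2f2, Ppargc1b, Nr4a1) the 3 Ctl libraries.

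Thrb encodes the main thyroid hormone receptor of hepatocytes. Thrb (ENSMUSG00000021779.16, chromosome 14, 17660261 to 18038090, plus strand) stood at 117, 108 and 124 CPM in Ctl replicates 0, 1 and 2, against 78.1, 72.6 and 95.1 CPM in Li-KO. The highest Li-KO library, replicate 2, was still below the lowest Ctl library. Thrb fell by 0.51 on the log2 scale (SE 0.13, adjusted p = 0.0444, edgeR), the called value nearest to the threshold. Without Li-KO replicate 2 the adjusted p was 0.0189, and in the other 5 fits without a library it was 0.0941 to 0.167. Thra, the other thyroid hormone receptor, had 11.2, 12.3 and 11.6 CPM in Ctl against 16.6, 13.0 and 10.7 CPM in Li-KO (0.20 ± 0.18, adjusted p = 0.515). Exons of Thra overlap Nr1d1 on the opposite strand by 263 bases (5.70% of its exon bases). Nr1d1 had 16.5 ± 1.73 CPM in Ctl against 10.8 ± 4.02 CPM in Li-KO, without overlap (-0.62 ± 0.27, adjusted p = 0.175, edgeR). The part of Nr1d1 reads in the Thra value was not tested.

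Among 9 thyroid hormone target genes 0 rose and 3 fell (33.3% called, beside 12.0% of all genes), and their median log2 fold change was -0.74. Me1 (malic enzyme) went from 104, 183 and 110 CPM in Ctl to 17.8, 41.8 and 20.1 CPM in Li-KO (-2.32 ± 0.36, adjusted p = 0.00831, edgeR). Gpd2 (mitochondrial glycerol phosphate dehydrogenase) fell by 1.32 and Dio1 (type 1 deiodinase) by 1.63 on the log2 scale (adjusted p = 0.0158 and 0.0451). Thrsp, a lipogenic target, had 0.14 ± 0.17 (adjusted p = 0.639).

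Neither circadian receptor on the list was called. Rora (RORα), an activator of the clock gene Arntl, had 367, 246 and 254 CPM in Ctl against 193, 154 and 223 CPM in Li-KO. The groups did not overlap, with a log2 fold change of -0.61 ± 0.20 (adjusted p = 0.0811, edgeR). Nr1d2 (REV-ERBβ), a repressor of Arntl, had 136, 92.6 and 130 CPM in Ctl against 96.0, 92.7 and 94.8 CPM in Li-KO (-0.34 ± 0.15, adjusted p = 0.184), with overlap. Of 8 tested ROR and REV-ERB targets 0 rose and 2 fell (25% called, beside 12.0% of all genes), with a median of -0.54. Arntl (BMAL1) fell from 23.3, 17.1 and 11.0 CPM to 4.35, 4.88 and 9.02 CPM (-1.49 ± 0.35, adjusted p = 0.0313), and Avpr1a (vasopressin receptor) fell by 2.86 (adjusted p = 0.00775). Arntl was the 1 called gene among 15 clock genes tested (6.67%, below the 12.0% of all genes), whose median was -0.32. The time of collection was not tested as a source of these values, since the labels do not give it.

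The COUP family showed opposite changes in its members. Nr2f6 (EAR2, ENSMUSG00000002393.14, chromosome 8, 71374123 to 71381960, minus strand), mostly a transcriptional repressor, had 70.0, 81.1 and 69.7 CPM in Ctl against 116, 118 and 98.9 CPM in Li-KO. The lowest Li-KO library was above the highest Ctl library. Nr2f6 rose 1.51-fold (log2 fold change 0.59 ± 0.12, adjusted p = 0.0221, edgeR). The call was kept without Li-KO replicate 0 or 2 (adjusted p 0.0474 and 0.0158) and lost in the other 4 fits without a library (0.0596 to 0.0936). Over 54.4% of its exon bases (1622 bases) Nr2f6 overlaps Ocel1 on the opposite strand, which had 9.25 ± 0.402 CPM in Ctl against 10.9 ± 3.58 CPM in Li-KO (0.24 ± 0.23, adjusted p = 0.541).

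The Nr2f6 promoter is shown as the member window with as many GC boxes as any other of the 47 (GRCm38.p6, chr8:71381903-71382202, minus strand).
Nr2f6: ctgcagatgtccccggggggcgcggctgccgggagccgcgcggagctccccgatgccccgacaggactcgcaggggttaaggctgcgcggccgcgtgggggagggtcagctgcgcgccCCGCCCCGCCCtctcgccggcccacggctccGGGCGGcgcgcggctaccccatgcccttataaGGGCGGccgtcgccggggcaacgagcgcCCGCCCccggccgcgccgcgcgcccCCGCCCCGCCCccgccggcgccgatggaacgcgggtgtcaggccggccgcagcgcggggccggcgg
Capitals mark 7 GC boxes on either strand, of which some adjoin, and the window was 82.7% G and C against a median of 52.7% over all promoters. GC boxes were found in 23 of the 47 windows and CACCC boxes in 20. The Ncoa1 window also had 7 GC boxes, and Ncoa1 was not called.

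Nr2f2 (COUP-TFII, ENSMUSG00000030551.14, chromosome 7, 70351944 to 70366735, minus strand), which is known for a role in veins and stromal cells as well as in hepatocytes, stood at 49.0, 62.3 and 56.1 CPM in Ctl replicates 0, 1 and 2. It stood at 35.1, 28.1 and 35.8 CPM in Li-KO, below each Ctl library. Nr2f2 fell by 0.76 on the log2 scale (SE 0.15, adjusted p = 0.0173, edgeR). Without Ctl replicate 1, Ctl replicate 2 or Li-KO replicate 1 the adjusted p was 0.0848, 0.0612 and 0.0703. On the deposited FPKM values the log2 fold change was -0.43, smaller by over 1.5 times, and was not called (adjusted p = 0.105, limma on log2(FPKM + 0.1)). Its RefSeq promoter held none of the GC, CACCC or AGGTCA letters. As shares of the summed COUP level, Nr2f2 held 24.5% ± 1.44 in Ctl and 14.3% ± 1.07 in Li-KO, and Nr2f6 held 74.8% ± 1.22 and 85.0% ± 1.15.

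Of 10 endothelial markers 0 were called, and their summed level was 615 to 684 CPM in Ctl against 437 to 738 CPM in Li-KO. Of 12 stellate cell and fibroblast markers 1 was called, Rgs5, which fell by 1.27 on the log2 scale (adjusted p = 0.0199, edgeR), and the sums were 726 to 785 and 661 to 846 CPM. No marker of these lists was at 0 in all libraries. The part of these cells in the Nr2f2 value was not tested.

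Nr4a1 (NUR77, ENSMUSG00000023034.6, chromosome 15, 101254269 to 101274795, plus strand) is an immediate-early orphan receptor that fasting hormones and stress induce. Its level was low, 6.95, 4.39 and 4.48 CPM in Ctl replicates 0, 1 and 2, against 2.93, 1.35 and 1.80 CPM in Li-KO, from 42 to 290 fragments per library. The groups did not overlap, but replicate 0 was the highest library in each. Nr4a1 fell by 1.38 on the log2 scale (SE 0.35, adjusted p = 0.0375, edgeR). Of the 6 fits without a library it was called in 1, without Li-KO replicate 0 (adjusted p = 0.0238), and the others gave 0.0689 to 0.115. Its relatives Nr4a2 and Nr4a3 averaged below 1 CPM in both groups and were not called.

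The other orphan receptors were not called. Nr6a1 (GCNF), known from germ and embryonic cells, had 21.8, 15.8 and 16.1 CPM in Ctl against 27.3, 22.3 and 30.6 CPM in Li-KO, without overlap (0.58 ± 0.18, adjusted p = 0.0690, edgeR). Hnf4a had 1354, 1215 and 1280 CPM in Ctl against 1006, 1254 and 1395 CPM in Li-KO, with overlap (-0.07 ± 0.16, adjusted p = 0.802). Nr5a2 (LRH-1), a regulator of bile acid genes, had -0.28 ± 0.13 (adjusted p = 0.196). Nr2c1 and Nr2c2 (TR2 and TR4), testicular receptors, had 0.01 ± 0.15 and -0.22 ± 0.15 (adjusted p = 0.986 and 0.370). Nr2c2 shares 30.7% of its exon bases with Mrps25 on the opposite strand. Mrps25 had 19.6 ± 0.809 CPM in Ctl against 23.7 ± 0.430 CPM in Li-KO (0.28 ± 0.12, adjusted p = 0.155, edgeR). Nr2f1 and Hnf4g, both low, had adjusted p-values of 0.523 and 0.519.

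Among 11 HNF4A targets 0 rose and 4 fell (36.4% called, beside 12.0% of all genes) while Hnf4a itself was not called, with a list median of -0.36. Otc (ornithine transcarbamylase of the urea cycle) went from 663, 646 and 769 CPM in Ctl to 151, 117 and 149 CPM in Li-KO (-2.32 ± 0.16, adjusted p = 0.000495, edgeR). Pklr (liver pyruvate kinase) fell by 2.25 and Cyp2c29, a cytochrome P450, by 1.27 on the log2 scale (adjusted p = 0.00361 and 0.0332). Ttr and Apoa2, secreted protein genes on the same list, had 0.56 ± 0.20 and 0.55 ± 0.21 (adjusted p = 0.110 and 0.119). Of 7 LRH-1 targets 1 fell, the mitochondrial carrier Slc25a38 (-0.56 ± 0.14, adjusted p = 0.0413), with a median of -0.56. That share of 14.3% was near the 12.0% of all genes.

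None of the 3 steroid receptors was called. Nr3c1, the glucocorticoid receptor, had 238, 261 and 246 CPM in Ctl against 187, 219 and 228 CPM in Li-KO, without overlap (-0.23 ± 0.12, adjusted p = 0.248, edgeR). Nr3c2, the mineralocorticoid receptor, had 35.6 ± 9.55 and 37.1 ± 8.35 CPM (adjusted p = 0.897). Esr1, the oestrogen receptor α, had 182, 70.1 and 133 CPM in Ctl against 80.4, 78.1 and 124 CPM in Li-KO, a wide and overlapping spread (-0.45 ± 0.32, adjusted p = 0.397). Of 12 glucocorticoid targets 2 rose and 0 fell (16.7% called, beside 12.0% of all genes), with a median of 0.29. These were Lcn2 (lipocalin 2, also an acute phase gene, 3.18 ± 0.44, adjusted p = 0.00603) and Gadd45b (stress gene, 2.44 ± 0.58, adjusted p = 0.0325). Fkbp5 and Tsc22d3, 2 direct glucocorticoid targets, had -0.22 ± 0.60 and 0.02 ± 0.30 (adjusted p = 0.849 and 0.974).

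**Figure D4:**
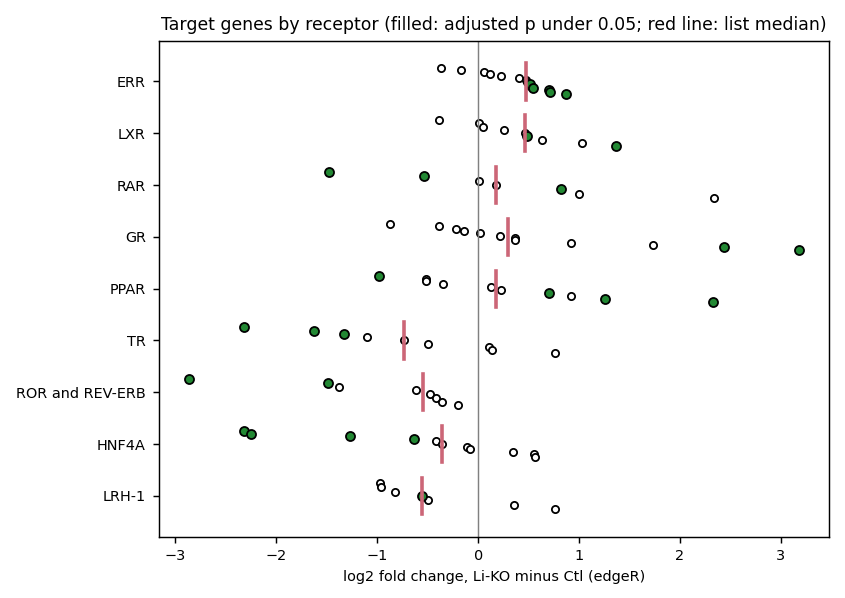
Log2 fold change, Li-KO minus Ctl, of the tested genes of 9 target lists, 1 point per gene, with filled points for an adjusted p under 0.05 (edgeR) and a red line at each list's median. ERR (5 of 14 genes), LXR (2 of 9) and glucocorticoid (GR, 2 of 12) targets hold filled points right of 0 only. Thyroid hormone (TR, 3 of 9), ROR and REV-ERB (2 of 8), HNF4A (4 of 11) and LRH-1 (1 of 7) targets hold them left of 0 only. Over all genes tested 12.0% were called. Medians run from -0.74 (TR) to 0.48 (ERR). The LXR points include Nr1h3 itself, and the RAR points include Rarb itself.

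Of 20 further nuclear receptors outside the 35 genes, 13 passed the filter on low counts. Nr1i2, the xenobiotic receptor PXR, was the 1 called (7.69%, below the 12.0% of all genes). It rose from 144, 99.3 and 119 CPM in Ctl to 207, 168 and 177 CPM in Li-KO (0.61 ± 0.16, adjusted p = 0.0426, edgeR). The 13 had a median log2 fold change of 0.04. Nr1h4, the bile acid receptor FXR, had 175 ± 42.3 CPM in Ctl against 185 ± 39.0 CPM in Li-KO.

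The number of called genes depended on the libraries and the test, as in the whole table. Without Ctl replicate 0, 1 or 2 there were 3, 1 and 2 of the 35 called, beside 7.70%, 2.53% and 3.78% of all genes tested. Without Li-KO replicate 0, 1 or 2 there were 6, 2 and 7, beside 7.26%, 2.79% and 14.9%. All 9 genes kept their direction in each of the 14 alternatives. The DESeq2 Wald test called 12 of the 35 (5 higher and 7 lower, beside 19.0% of all genes), the 9 above with Ppard, Rora and Nr6a1. With limma on log2(FPKM + 0.1) Esrra, Nr2f6 and Nr1h3 were called, beside 3.59% of all genes.

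**Figure D5:**
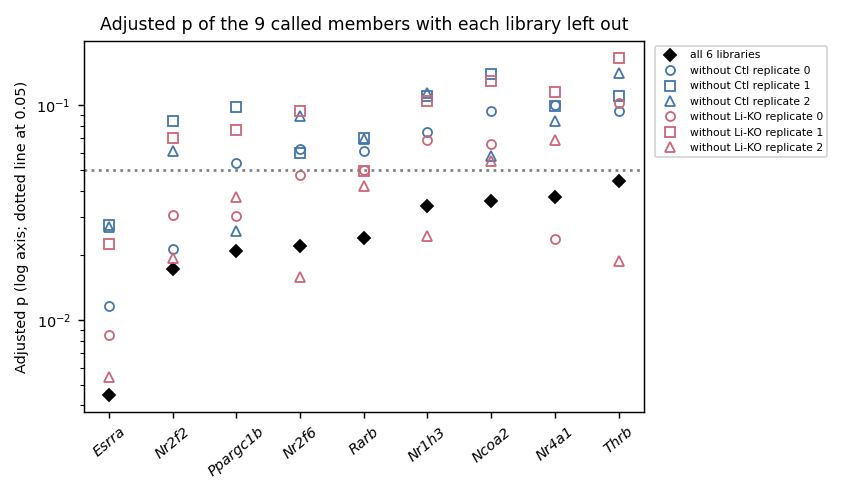
Adjusted p (edgeR, log axis) of the 9 called genes with all 6 libraries (black) and with each library left out in turn (blue for Ctl, red for Li-KO, symbol for the replicate number). The dotted line is the threshold of 0.05. Esrra stays below it in all 6 such fits and Ncoa2 in none of them.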

How the data were processed

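RNA sequencing of total liver RNA (stranded total RNA libraries) was compared between 3 Ctl and 3 Li-KO libraries. STAR, Cufflinks and Cuffdiff with the mm10 build were used per the submitters' processing notes. Their versions and options, the strand setting included, and the annotation are not given in the sources at hand. The authors deposited, per the file headers, unnormalized estimated counts of fragments and FPKM for each gene and library. The WT and KO conditions of the table correspond to Ctl and Li-KO by sample title, and 0 columns were left without a sample.

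Gene IDs were matched to symbols for 48051 of 48432 genes, with positions and exons from GENCODE M21. Estimated counts were rounded. The 77 genes that Cuffdiff skipped in some library were left out, and none of the 35 genes was among them. Genes were filtered with filterByExpr (minimum count 10, minimum total 15), scaled by TMM and tested by edgeR 4.0.16, two-sided, with quasi-likelihood F tests (R 4.3.3) over the 6 libraries, with Benjamini-Hochberg adjustment over 16533 genes. The SE is the log2 fold change over the root of F. The scripts were tested on simulated data. FPKM served for levels between genes and TMM-scaled CPM for differences.

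Alternatives used DESeq2 1.42.0, limma 3.58.1, other filters, FPKM with pseudocounts of 0.1 and 1, the replicate number as a block, and each library left out. Full values are given for the genes called and for those with an unadjusted p under 0.05, and from other lists for up to 4 called genes with the smallest p, with other genes as context. Some called genes of those lists are counted but not reported here by name. The 35 genes and all lists were chosen with earlier results of these data known. Promoter sequences are from RefSeq (GRCm38.p6).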

Additional observations from a re-analysis of the deposited data

How the results depend on the processing

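With each library left out in turn, between 1 and 4 of the 35 genes were called higher in Li-KO and between 0 and 3 lower, against 4 and 5 with all 6 libraries. Over all genes these fits called 198 to 1102 higher and 234 to 1447 lower, against 1010 and 976. With limma on log2(FPKM + 0.1), 3 of the 35 were higher and 0 lower, and over all genes 445 and 460. With limma on log2(FPKM + 1), these were 3, 0, 395 and 413. At a pseudocount of 0.1 the adjusted p of the 6 genes that lost the call was 0.0635 (Thrb) to 0.112 (Ncoa2). The DESeq2 Wald test called 1496 genes higher and 1515 lower. DESeq2 size factors, limma-voom, no filter on low counts and skipped genes kept at 0 each left 4 higher and 5 lower. The 9 called genes and the 7 others with an unadjusted p under 0.05 kept their direction throughout, while Hnf4a, Nr2c1, Nr2f1, Nr3c2, Rara and Rarg, none of them called, changed sign under at least 1 alternative. The cause of the differences between counts and FPKM was not tested.

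The labels share replicate numbers between groups, but same-numbered libraries correlated by only 0.02, 0.08 and 0.07 in their deviations from the group means, and not every library correlated best with its own number, so they were not taken as pairs. With the replicate block the calls among the 35 were again 4 and 5, and over all genes 956 and 1015. The labels name neither the mice nor the feeding state. A fragment count of 42 to 290 limits Nr4a1, and Vdr cannot be tested at this depth.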

Other observations

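The libraries were of like sex by their transcripts, which the labels do not state. Xist stood at 0 to 0.431 CPM and the Y-linked gene Ddx3y at 121 to 198 CPM over the 6 libraries, so Esr1 and the other receptors were compared within one sex.

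For Rora the deposited units gave different sizes. Its log2 fold change was -0.61 on counts and -0.32 on log2(FPKM + 0.1), both below 0 and neither called by edgeR or limma, while the DESeq2 Wald test gave an adjusted p of 0.0247.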
